A study of Mus musculus with 8 samples.

Results

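The genes described here encode the translation initiation factors of the mouse, the kinases that act on eIF2 and the 4E-BPs. A gene was taken when its symbol began with Eif and a digit and the platform's annotation gave a probe set that single symbol, and among several such probe sets the one with the highest mean over the arrays was used. This left 49 members of the 19938 genes measured. They comprise 5 genes of eIF2 and its delivery, 5 of the exchange factor eIF2B, 4 eIF2 kinases, 7 factors of start codon selection and the small subunit, 11 subunits of eIF3, 13 genes of cap binding and the helicase, 2 4E-BPs and 2 eIF5A genes. Eif4ebp3, Eif3j1 and Eif3j2 are not members because their probe sets are annotated to several symbols, and Eif1, Eif2s1, Eif3g and Eif4g1 were not analysed here.

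RNA was measured on 8 Affymetrix arrays. It came from primary malignant tumours of the peripheral nerve sheath that arose in NPcis mice, which carry linked mutations of Nf1 and Trp53. All groups share this genotype and tumour type. The vehicle, rapamycin, PD-0325901 and combination groups hold 2 arrays each. Rapamycin, an inhibitor of mTORC1, was injected intraperitoneally at 5 mg/kg. PD-0325901, an inhibitor of the kinase MEK, was given by oral gavage at 1.5 mg/kg per dose, with 2 doses a day. The combination group received both drugs at these doses, and all treatments lasted 14 hours. Values are log2 as deposited, so a difference of 1 is a doubling. With 2 arrays a group, precision is limited by their number. The labels do not say whether the arrays of a group come from separate animals, so p-values measure only the spread between these samples.

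Initiation begins when eIF2 carries the initiator tRNA, with GTP, to the small ribosomal subunit, where eIF1, eIF1A, eIF3 and eIF5 join it. The cap-binding protein eIF4E, the scaffold eIF4G and the helicase eIF4A bring the mRNA, and the 4E-BPs block this step by binding eIF4E until mTORC1 phosphorylates them. The MNK kinases downstream of ERK phosphorylate eIF4E, and the eIF2 kinases slow initiation by phosphorylating eIF2, which then inhibits eIF2B. Both drugs are thus known to act on the proteins of this pathway, whereas the arrays measured only the abundance of the mRNAs.

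Eif2s3y, the Y-linked copy of the eIF2 gamma subunit gene, had by far the widest range of the members. Its values were 8.23 and 8.35 in the vehicle arrays, 5.06 and 5.15 in the rapamycin arrays, 9.07 and 5.09 in the PD-0325901 arrays and 9.81 and 5.60 in the combination arrays. The Y-linked genes Kdm5d and Uty were low on the same 4 arrays as Eif2s3y. Xist, the RNA of the inactive X chromosome, ran the other way, with 5.92 and 5.95 in vehicle, 11.58 and 10.70 in rapamycin, 5.91 and 11.54 in PD-0325901, and 7.09 and 11.47 in the combination. Xist was thus high on both rapamycin arrays, on neither vehicle array, and on array 2 of the PD-0325901 and combination groups. The labels give no sex. In rapamycin against vehicle, the drug and this pattern cannot be told apart from group means alone, so a fit with the Xist pattern (4 high and 4 low arrays) as a block was added after these values were seen. Its value is given for some of the printed differences of members, and not for every one that it moves. That block is estimated only from the PD-0325901 and combination groups, which hold both kinds of array. For Eif2s3y the rapamycin difference from vehicle was -3.18 (SE 1.68), and in limma its adjusted p was 0.9638. With the Xist block it was 0.92 (SE 0.17), though both rapamycin arrays lay near the other arrays with high Xist. The block step came from arrays at 9.07 and 9.81 against 5.09 and 5.60. The 0.92 is therefore a product of that step and not a rise measured for Eif2s3y. Eif2s3x, its X-linked counterpart, had values of 12.03 and 11.61 in vehicle, 11.85 and 12.15 in rapamycin, 11.33 and 11.67 in PD-0325901, and 11.43 and 11.38 in the combination.

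**Figure D1:**
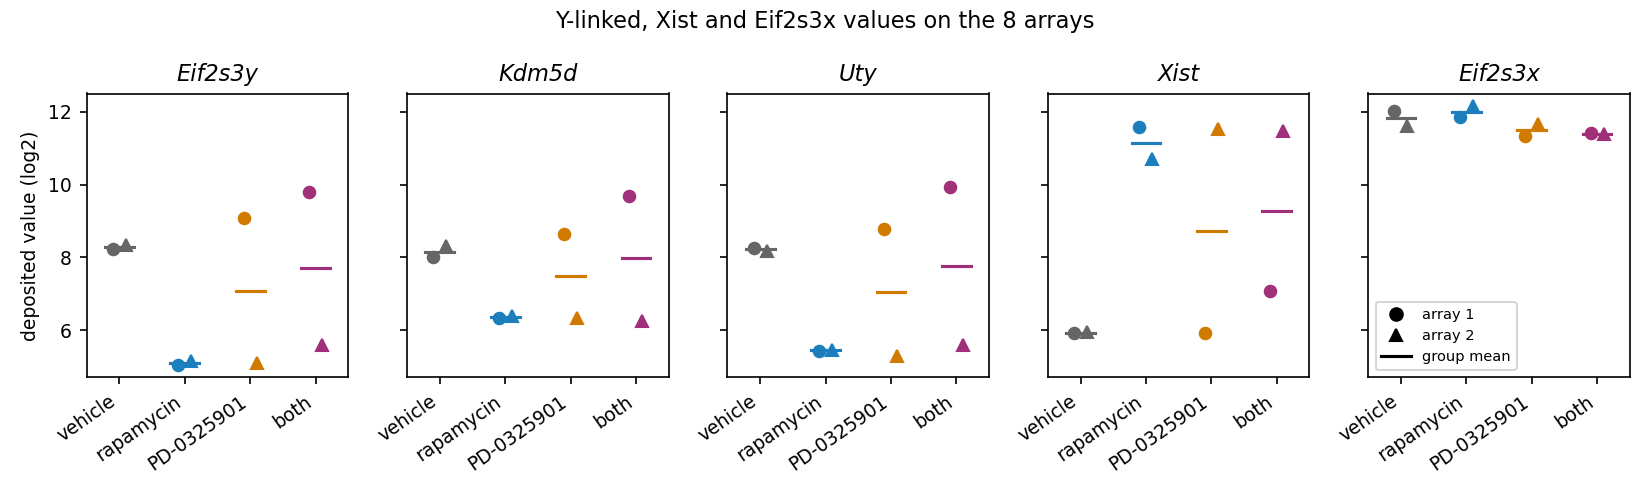
Deposited log2 values of Eif2s3y, Kdm5d, Uty, Xist and Eif2s3x on the 8 arrays, with a bar at each group mean; circles are array 1 and triangles array 2 of a group. Eif2s3y is at 8.23 and 8.35 in vehicle and at 5.06 and 5.15 in rapamycin, while Xist is low in the first and high in the second.

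Correlations between arrays over all probe sets ran from 0.961 to 0.986 within groups and from 0.963 to 0.985 between groups. Of 12 Schwann lineage markers 10 were measured, with a mean log2 value between 7.83 and 8.35 on each array. Of these, Sox10 lay between 7.85 and 8.17, S100b between 7.12 and 7.32, and Ngfr between 8.38 and 8.68, while Pmp22 was the highest on every array, at 11.03 to 12.59. Levels of different probe sets are not comparable, so these values do not say how strongly the label is borne out. Skeletal muscle markers (8 of 8 measured) averaged 10.38 on rapamycin array 2 and 7.55 on rapamycin array 1, and between 7.71 and 9.37 on the others. Fibroblast markers (7 of 7) averaged 10.22 and 11.94 on the vehicle arrays, 11.83 and 10.38 on the rapamycin arrays, 11.66 and 11.69 on the PD-0325901 arrays and 10.99 and 11.92 on the combination arrays, so both the vehicle and the rapamycin arrays differed widely within their group. Erythroid markers (4 of 9 measured) averaged 9.01 on PD-0325901 array 2 and between 7.26 and 7.61 on the others. As PD-0325901 main effects, 10 of 10 macrophage markers were higher (7 at an unadjusted p under 0.05, array means of 10.54 to 10.83 without and 10.84 to 11.30 with the drug), as were 11 of 11 T and NK cell markers (7, array means of 7.10 to 7.68 without and 7.67 to 8.58 with it), and 8 of 8 endothelial markers were lower (4), beside 5.47% of all genes higher and 4.14% lower at that threshold. The part of these cell types in the results below was not tested. In bulk tumour RNA, fewer cells of a type and less RNA per cell cannot be told apart.

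Most members were lowest in the combination. Its mean was the lowest of the 4 group means for 31 of 49 members, against 28.2% of all genes. With each member centred on its own mean over the 8 arrays, the median of the members was 0.15 and 0.05 on the vehicle arrays, -0.12 and 0.13 on the rapamycin arrays, 0.07 and -0.05 on the PD-0325901 arrays and -0.06 and -0.22 on the combination arrays. On combination array 2, 42 of 49 members lay below their own mean, and on vehicle array 1, 40 lay above it. With every gene centred likewise, the median of all genes was -0.0002 on combination array 2 and 0.0140 on vehicle array 1. The rapamycin arrays stood on opposite sides, with 36 of 49 members higher on array 2 than on array 1. The median of all genes was -0.0255 on rapamycin array 1 and -0.0074 on rapamycin array 2. The matching shares of all genes were not counted, so these member counts have no background. The median distance between the rapamycin arrays was 0.30 for the members and 0.20 for all genes, the widest of the 4 groups in both cases. The pooled SD between arrays of a group was 0.12 for the member median, and the group means of that median differed from vehicle by less than this with either single drug and by more with the combination.

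**Figure D2:**
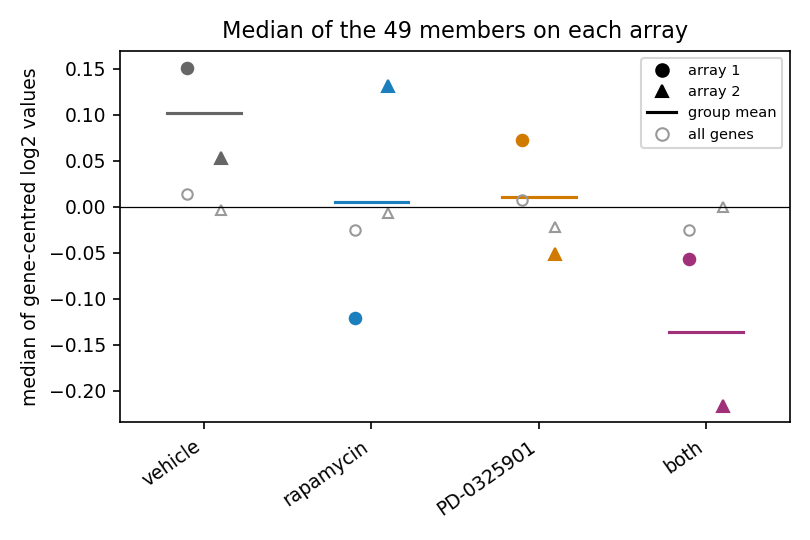
Median over the 49 members of the log2 values centred on each gene's mean (filled), with the same over all genes (open), on each array; circles are array 1, triangles array 2 and bars group means. The combination arrays lie at -0.06 and -0.22 and the vehicle arrays at 0.15 and 0.05, while the rapamycin arrays lie at -0.12 and 0.13.

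The combination was compared with vehicle to ask what blocking both pathways changes. The difference was below 0 for 40 of 49 members, against 53.7% of all genes, with a median of -0.22 for the members and -0.02 for all genes. In limma, 0 members and 0 of all genes passed an adjusted p of 0.05. At an unadjusted p under 0.05, 11 members were lower and 0 higher, beside a background of 9.07% of all genes, made up of 797 lower genes and 5.08% higher. They were Eif3i, Eif3a, Eif3b, Eif2b1, Eif2b3, Eif2s2, Eif2b5, Eif4h, Eif3c, Eif4ebp2 and Eif4g2. The combination arrays lay below both vehicle arrays for 24 members (22.3% of all genes) and above both for 1 member, Eif3f (17.9% of all genes). Leaving out vehicle array 1 or combination array 2 turned the count of 11 into 5, and leaving out vehicle array 2 or either PD-0325901 array turned it into 7. Omitting combination array 2, which leaves only arrays with low Xist in this comparison, gave 36 of 49 members lower and a median of -0.14. With the Xist block 36 of 49 were lower, the median was -0.14, and 5 were lower and 1 higher at an unadjusted p under 0.05. The 1 higher was the Y-linked Eif2s3y (1.47, SE 0.13). Of its combination arrays, at 9.81 and 5.60, only array 1 lay above vehicle, and the 1.47 rests on the block step.

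**Figure D3:**
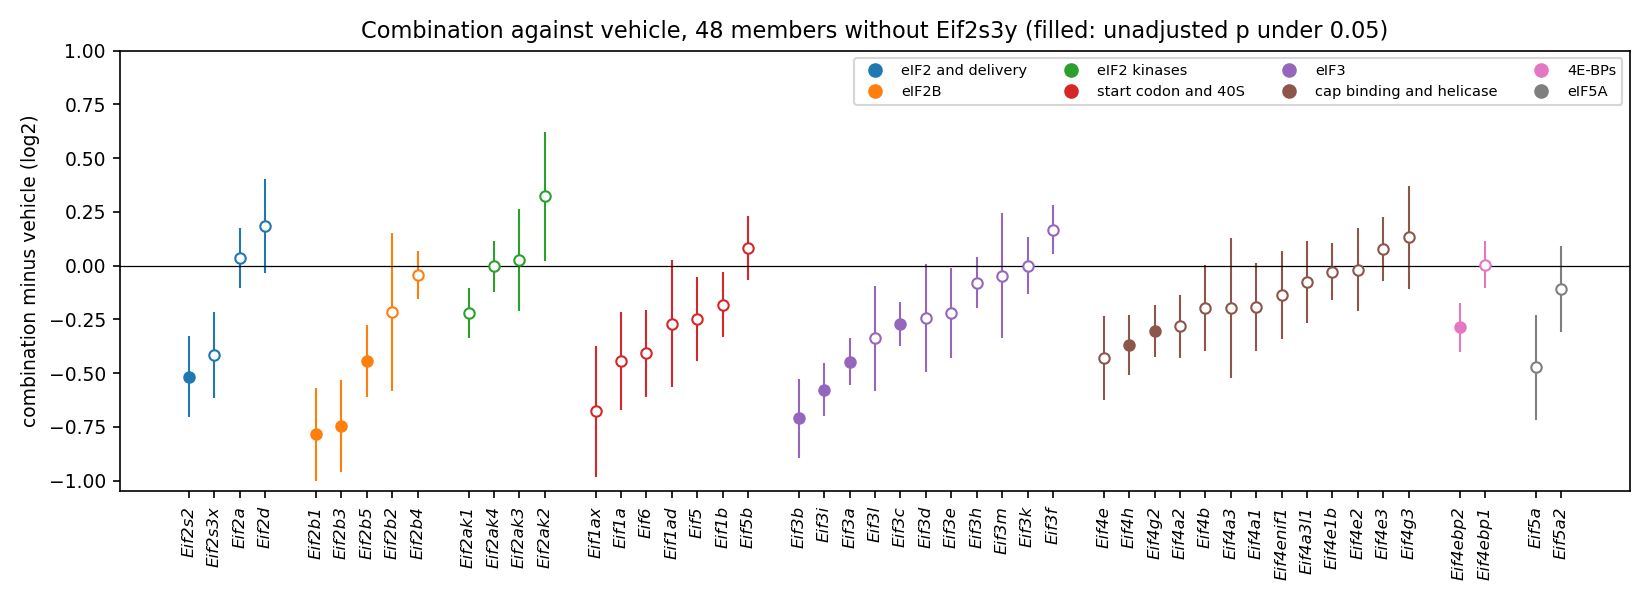
Log2 difference of combination minus vehicle (limma, bars are SE) for 48 members grouped by role, without Eif2s3y. Filled symbols have an unadjusted p under 0.05: all 11 lie below 0, from -0.27 for Eif3c to -0.78 for Eif2b1.

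The eIF3 complex is the scaffold that holds the initiation complex on the small subunit, and 10 of its 11 measured subunits were lower in the combination than in vehicle, with a median of -0.24. Eif3i, a subunit with WD repeats, had values of 10.76 and 10.88 in vehicle, 10.25 and 10.40 in rapamycin, 10.82 and 10.75 in PD-0325901, and 10.36 and 10.12 in the combination. All 4 arrays with rapamycin lay below all 4 without it, and PD-0325901 alone overlapped vehicle. The rapamycin main effect averages the differences that rapamycin made in the absence and in the presence of PD-0325901, and was -0.52 (SE 0.09) for Eif3i, with an adjusted p of 0.7523 in limma and an unadjusted p of 0.0011. With the Xist block it was -0.44 (SE 0.10). Eif3c, a core subunit, showed the same separation of the arrays, with a rapamycin main effect of -0.24 (SE 0.07, adjusted p = 0.7824). Such separation downwards was found for these 2 members and for 1.94% of all genes. Eif3c values were 11.29 and 11.30 in vehicle, 11.13 and 11.28 in rapamycin, 11.43 and 11.40 in PD-0325901, and 10.96 and 11.09 in the combination, so the rapamycin arrays lay just under the vehicle arrays.

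Eif3a, the largest subunit of the complex, had values of 11.17 and 11.21 in vehicle, 10.77 and 10.87 in rapamycin, 10.87 and 10.98 in PD-0325901, and 10.84 and 10.65 in the combination. All 6 treated arrays lay below both vehicle arrays. The differences from vehicle were -0.37 (SE 0.11) with rapamycin, -0.26 (SE 0.11) with PD-0325901 and -0.45 (SE 0.11) with both, none of them past the adjusted threshold in limma, where the smallest adjusted p of the 3 was 0.4039. These comparisons share the vehicle arrays. Eif3b, which anchors the module of Eif3g and Eif3i, had values of 12.19 and 12.01 in vehicle, 11.67 and 12.09 in rapamycin, 11.87 and 11.64 in PD-0325901, and 11.50 and 11.28 in the combination. Its combination arrays were lower than the other 6, and the difference from vehicle was -0.71 (SE 0.18, adjusted p = 0.4039), or -0.60 (SE 0.19) with the Xist block. Eif3f, a subunit with a deubiquitinase-like domain, was the only one of the 11 subunits above vehicle in the combination, though Eif3k was level with vehicle. With PD-0325901 alone 7 of the 11 were above vehicle, beside 9208 of 19938 genes. With rapamycin alone 4 were, beside 9144 of 19938 genes. The values of Eif3f were 11.56 and 11.46 in vehicle, 11.87 and 11.77 in rapamycin, 11.71 and 11.85 in PD-0325901, and 11.59 and 11.76 in the combination, so every treated array was above both vehicle arrays. The differences were 0.31, 0.28 and 0.17 (SE 0.11 each), with adjusted p-values of 0.9638, 0.8553 and 0.7222. With the Xist block they were 0.16 (SE 0.15), 0.20 (SE 0.12) and 0.091 (SE 0.12), and the combination difference was 0.084 on omitting combination array 2. Eif3k and Eif3m had combination differences of -0.0006 (SE 0.13) and -0.045 (SE 0.29), the latter 0.11 (SE 0.32) with the Xist block.

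**Figure D4:**
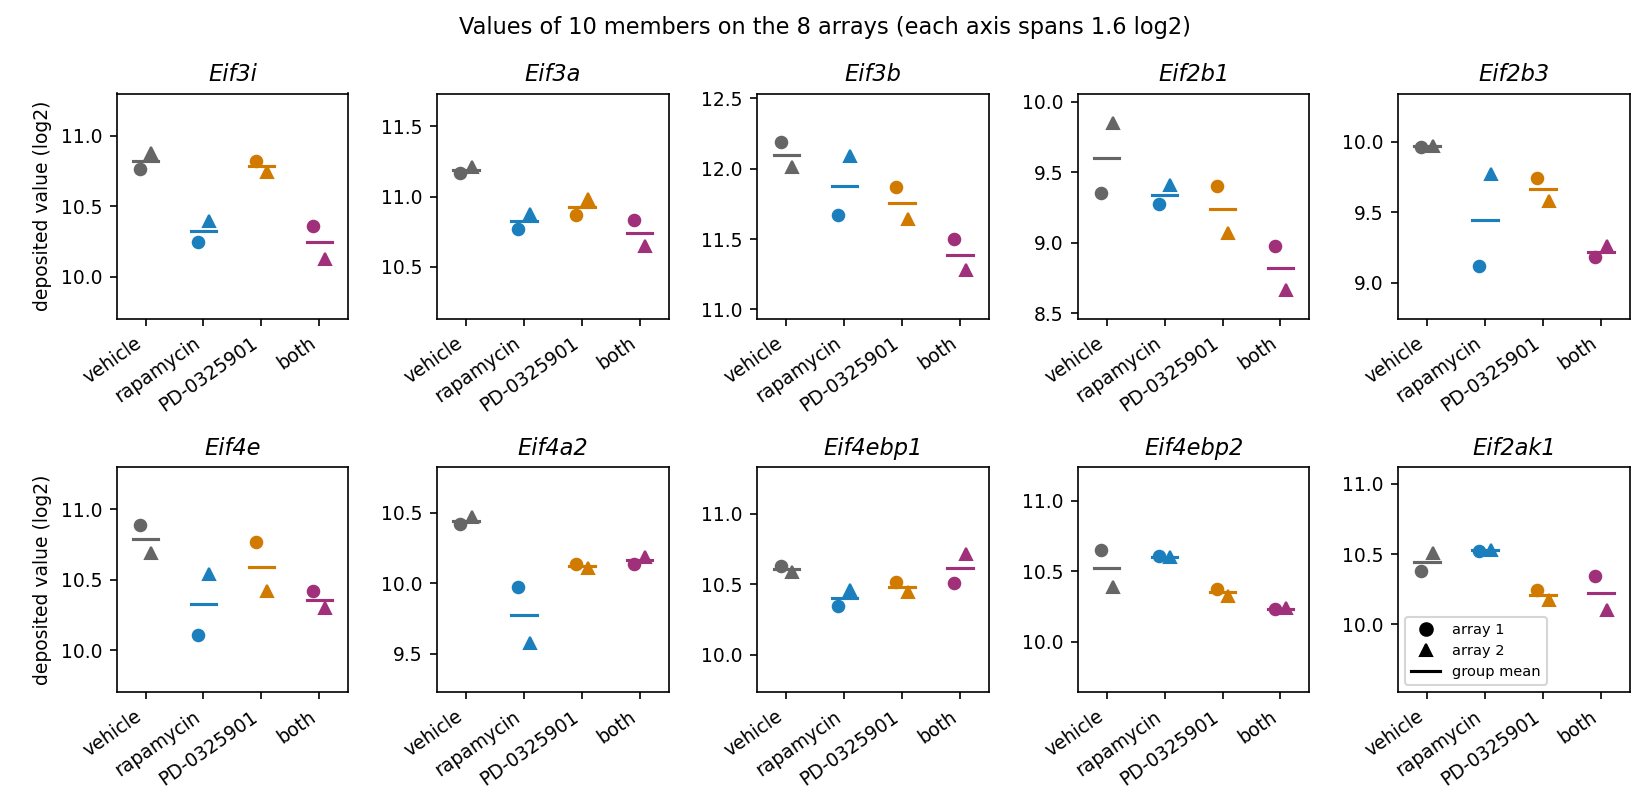
Deposited log2 values of 10 members on the 8 arrays, with a bar at each group mean; circles are array 1 and triangles array 2, and the limits differ between panels, though each spans an equal number of log2 units. Eif3i separates the arrays with and without rapamycin, Eif4ebp2 and Eif2ak1 separate those with and without PD-0325901, and Eif3b, Eif2b1 and Eif2b3 have their lowest group mean in the combination.

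The exchange factor eIF2B reloads eIF2 with GTP, and all 5 of its subunits were lower in the combination than in vehicle, with a median of -0.44. Eif2b1, the alpha subunit, had values of 9.35 and 9.85 in vehicle, 9.27 and 9.41 in rapamycin, 9.40 and 9.07 in PD-0325901, and 8.97 and 8.66 in the combination. Both combination arrays were lower than the other 6, and the vehicle arrays themselves were 0.50 apart. The combination difference was -0.78 (SE 0.22, adjusted p = 0.4360). Eif2b3, the gamma subunit, had values of 9.96 and 9.97 in vehicle, 9.12 and 9.77 in rapamycin, 9.74 and 9.58 in PD-0325901, and 9.18 and 9.26 in the combination. Every treated array lay below vehicle, with rapamycin array 1 the lowest of all. Its combination difference was -0.75 (SE 0.21, adjusted p = 0.4372), and with the Xist block -0.73 (SE 0.26). Eif2b5, the catalytic epsilon subunit, had a combination difference of -0.44 (SE 0.17, adjusted p = 0.5210), and -0.28 (SE 0.12) with the Xist block. Eif2b4 and Eif2b2, regulatory subunits, had -0.044 (SE 0.11) and -0.22 (SE 0.37), the latter -0.020 (SE 0.41) with the Xist block.

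Of eIF2 itself, Eif2s2, the beta subunit, had values of 10.44 and 10.32 in vehicle, 9.58 and 10.05 in rapamycin, 10.10 and 10.02 in PD-0325901, and 10.03 and 9.70 in the combination. All treated arrays were below vehicle, with differences of -0.56, -0.32 and -0.52 (SE 0.19 each) and adjusted p-values of 0.9638, 0.9874 and 0.5032. The rapamycin difference was -0.36 (SE 0.26) with the Xist block and -0.33 on omitting rapamycin array 1. A further probe set of Eif2s2 followed it across the arrays (r = 0.94 over 8 arrays, a description). Eif2s3x had a PD-0325901 main effect of -0.46 (SE 0.14, adjusted p = 0.3918). Eif2a and Eif2d, factors that can deliver initiator tRNA by other routes, had combination differences of 0.036 (SE 0.14) and 0.18 (SE 0.22). With the Xist block these were 0.16 (SE 0.12) and 0.31 (SE 0.24).

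Among the factors of start codon selection and the small subunit, 6 of 7 were lower in the combination, all 6 with both combination arrays below both vehicle arrays, as for 22.3% of all genes. None of the 7 had an unadjusted p under 0.05. Eif1ax, an X-linked gene of eIF1A, had values of 10.78 and 10.47 in vehicle, 10.35 and 10.87 in rapamycin, a mean of 10.06 (10.11 on array 2) in PD-0325901, and 10.36 and 9.55 in the combination, and its PD-0325901 main effect was -0.61 (SE 0.22, adjusted p = 0.4469). Eif1b, a second eIF1 gene, had values of 10.64 and 10.58 in vehicle, 10.97 and 10.62 in rapamycin, 10.33 and 10.50 in PD-0325901, and 10.53 and 10.33 in the combination. Its 4 arrays with PD-0325901 lay below the 4 without it, with a main effect of -0.28 (SE 0.11, adjusted p = 0.4892). Eif6, which keeps the large subunit from joining, had a combination difference of -0.41 (SE 0.20), or -0.19 (SE 0.12) with the Xist block. Eif5b, the GTPase of subunit joining, had one of 0.08 (SE 0.15), or 0.18 (SE 0.16) with the Xist block. Eif5a, the hypusinated factor that helps ribosomes through difficult peptide bonds, had a difference of -0.47 (SE 0.24), or -0.27 (SE 0.22) with the Xist block, with 11.95 on combination array 2 and 12.31 or more on every other array.

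Of the 13 genes of cap binding and the helicase, 11 were lower in the combination, with a median of -0.19. Eif4e, the cap-binding protein, had values of 10.89 and 10.69 in vehicle, 10.11 and 10.54 in rapamycin, 10.77 and 10.42 in PD-0325901, and 10.42 and 10.30 in the combination. The arrays with rapamycin were below vehicle, and PD-0325901 alone overlapped it. The rapamycin main effect was -0.35 (SE 0.14, adjusted p = 0.8915), and -0.23 (SE 0.16) with the Xist block. This value rests on 1 of 3 Eif4e probe sets: the other 2 correlated with it by 0.73 and 0.05 over the 8 arrays. Eif4h, a cofactor of the helicase, had values of 12.16 and 12.27 in vehicle, 11.92 and 12.19 in rapamycin, 12.12 and 11.91 in PD-0325901, and 11.92 and 11.77 in the combination, a combination difference of -0.37 (SE 0.14, adjusted p = 0.5238). Eif4g2, a relative of the scaffold that does not bind eIF4E, had a combination difference of -0.30 (SE 0.12, adjusted p = 0.5439). Eif4a1, the main helicase, had -0.19 (SE 0.20), or -0.072 (SE 0.22) with the Xist block, and Eif4b, its activator, -0.20 (SE 0.20).

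Eif4a2, the second helicase gene, had the largest rapamycin difference among the autosomal members. Its values were 10.42 and 10.47 in vehicle, 9.98 and 9.58 in rapamycin, 10.14 and 10.11 in PD-0325901, and 10.14 and 10.19 in the combination. Rapamycin alone was thus lowest, and the combination arrays lay with those of PD-0325901 alone. The rapamycin difference was -0.67 (SE 0.15, adjusted p = 0.9638), -0.68 (SE 0.23) with the Xist block, and the interaction of the drugs was 0.71 (SE 0.21, adjusted p = 0.9999). Eif4e3, a cap-binding relative of eIF4E, was highest with rapamycin alone, with 8.94 and 8.57 in vehicle, 9.25 and 9.28 in rapamycin, 8.89 and 8.91 in PD-0325901, and 8.94 and 8.72 in the combination. Its rapamycin difference was 0.52 (SE 0.15, adjusted p = 0.9638), or 0.33 on omitting vehicle array 2, and its interaction -0.58 (SE 0.21, adjusted p = 0.9999). Eif4g3, a scaffold gene, had values of 9.67 and 10.17 in vehicle, 10.52 and 10.34 in rapamycin, 10.18 and 10.65 in PD-0325901, and 9.90 and 10.21 in the combination. Either drug alone was above vehicle, by 0.51 and 0.49 (SE 0.24 each), while the combination overlapped vehicle, and the interaction was -0.86 (SE 0.34, adjusted p = 0.9999). With the Xist block the 3 values were 0.12 (SE 0.28), 0.30 (SE 0.22) and -0.48 (SE 0.34). Leaving out each array in turn gave 0.26 to 0.76 for rapamycin, lowest without vehicle array 1, and 0.24 to 0.74 for PD-0325901, lowest without vehicle array 1 and highest without vehicle array 2.

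Promoter windows of RefSeq (GRCm38.p6), from 250 bases before to 50 after an annotated start, were found for 39 of 49 members. They were searched on both strands for CACGTG, the palindromic E-box bound by Myc and related factors. At least 1 window held it for 9 of 39 members (23.1%) and for 2187 of 27025 genes (8.09%). The 27025 are all genes with a window, not the 19938 measured, and a gene with more starts has more windows. Whether the members differ from other genes in their number of starts or their level was not tested. Of the 11 members lower in the combination at an unadjusted p under 0.05, 8 had a window, and in 2 of them, Eif3a and Eif4h, it held the motif. The sequences of 250 bases upstream of the start are shown for 3 holders whose values are given here, with the E-box in capitals, and for Eif3b, the member of eIF3 with the lowest combination difference, which has none. A match is a description of the sequence and not a site. Eif4e has 2 motifs upstream of the later of its 2 annotated starts, 228 and 64 bases before it, at chr3:138527018-138527267 on the plus strand. Eif4h has 1, 96 bases before the start, at chr5:134639410-134639659 on the minus strand. Eif3f has 1, 68 bases before the start, at chr7:108934165-108934414 on the plus strand. Eif3b lies at chr5:140419055-140419304 on the plus strand.
Eif4e: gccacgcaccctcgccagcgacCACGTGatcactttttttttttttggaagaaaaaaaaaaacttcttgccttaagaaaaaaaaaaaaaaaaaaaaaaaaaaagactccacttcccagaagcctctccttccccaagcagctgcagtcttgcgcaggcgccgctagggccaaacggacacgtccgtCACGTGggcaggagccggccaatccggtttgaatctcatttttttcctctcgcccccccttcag
Eif4h: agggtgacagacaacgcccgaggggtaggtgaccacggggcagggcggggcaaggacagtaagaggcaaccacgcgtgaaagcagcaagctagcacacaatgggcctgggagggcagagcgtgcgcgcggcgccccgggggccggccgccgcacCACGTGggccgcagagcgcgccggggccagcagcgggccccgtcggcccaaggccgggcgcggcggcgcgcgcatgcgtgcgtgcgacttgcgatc
Eif3f: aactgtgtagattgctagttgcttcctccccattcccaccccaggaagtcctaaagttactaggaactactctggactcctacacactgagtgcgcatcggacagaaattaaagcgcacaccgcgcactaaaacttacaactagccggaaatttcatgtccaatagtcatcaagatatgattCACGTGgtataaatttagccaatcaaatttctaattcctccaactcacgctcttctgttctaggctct
Eif3b: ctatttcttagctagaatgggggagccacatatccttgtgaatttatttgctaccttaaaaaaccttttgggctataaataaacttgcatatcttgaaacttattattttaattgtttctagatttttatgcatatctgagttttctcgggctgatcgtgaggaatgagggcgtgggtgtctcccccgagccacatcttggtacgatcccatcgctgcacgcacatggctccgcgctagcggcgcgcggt
Of the 9 members with the motif, 8 were lower in the combination and 1, Eif3f, higher, beside 40 of 49 members lower in all. For the 3 shown, the combination difference was -0.43 (SE 0.19) for Eif4e, -0.37 (SE 0.14) for Eif4h and 0.17 (SE 0.11) for Eif3f. The Eif4e value rests on 1 of 3 probe sets. A second one had 8.74 and 8.77 in vehicle and 8.38 and 8.73 in the combination. The third had 8.42 and 8.03 in vehicle and 8.05 and 8.26 in the combination.

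The 4E-BPs are the direct targets of mTORC1 in this pathway. Eif4ebp1 had values of 10.63 and 10.59 in vehicle, 10.35 and 10.46 in rapamycin, 10.51 and 10.44 in PD-0325901, and 10.51 and 10.72 in the combination. Each drug alone lay below vehicle, by -0.20 and -0.13 (SE 0.11 each), whereas the combination was level with vehicle, with a difference of 0.0057 (SE 0.11), and the interaction was 0.34 (SE 0.16, adjusted p = 0.9999). Eif4ebp2 had values of 10.65 and 10.39 in vehicle, 10.61 and 10.60 in rapamycin, 10.38 and 10.32 in PD-0325901, and 10.23 and 10.24 in the combination. All 4 arrays with PD-0325901 lay below all 4 without it, though vehicle array 2 was barely above them. The PD-0325901 main effect was -0.27 (SE 0.08, adjusted p = 0.3783), and the rapamycin main effect was -0.017 (SE 0.08). The ratio of 4E-BP to eIF4E cannot be read from these values, since levels of different probe sets are not comparable.

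The 4 eIF2 kinases each answer to another stress. Eif2ak1, the haem-regulated kinase HRI, had values of 10.38 and 10.51 in vehicle, 10.52 and 10.53 in rapamycin, 10.25 and 10.17 in PD-0325901, and 10.34 and 10.11 in the combination. All 4 arrays with PD-0325901 were below the others, with a main effect of -0.27 (SE 0.08, adjusted p = 0.3979). HRI is best known from erythroid cells, and the part of such cells in the values of Eif2ak1 was not tested. Eif2ak2, the double-stranded RNA kinase PKR and itself an interferon-induced gene, had values of 9.10 and 8.37 in vehicle, 8.77 and 8.12 in rapamycin, 8.90 and 8.92 in PD-0325901, and 8.96 and 9.15 in the combination. Its PD-0325901 main effect was 0.39 (SE 0.21, adjusted p = 0.6577), or 0.21 on omitting vehicle array 2, and the vehicle arrays alone spanned most of the range. Interferon-induced genes (13 of 15 measured) were higher with PD-0325901 for 13 of 13, against 9169 of 19938 genes, with a median main effect of 0.50. At an unadjusted p under 0.05, 3 of the 13 were higher, beside 5.47% of all genes. The mean of the list ran from 8.42 on rapamycin array 2 to 10.03 on combination array 2. The part of that list in the values of Eif2ak2 was not tested. Eif2ak3, the endoplasmic reticulum kinase PERK, had a PD-0325901 main effect of 0.20 (SE 0.17), between 0.065 without rapamycin array 2 and 0.34 without rapamycin array 1, and Eif2ak4, the amino acid sensor GCN2, one of 0.06 (SE 0.08).

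The arrays with and without each drug were compared to ask what a drug changes whether or not the other is present. For PD-0325901, 36 of 49 members were lower (54.0% of all genes), with a median of -0.08. The 7 members with an unadjusted p under 0.05 (9.60% of all genes) were all lower, beside 4.14% of all genes lower and 5.47% higher: Eif4ebp2, Eif2s3x, Eif3b, Eif2ak1, Eif2b1, Eif1ax and Eif1b. The arrays did not overlap for 3 members, all lower (Eif4ebp2, Eif2ak1 and Eif1b), beside 2.39% of all genes lower and 3.34% higher. Omitting rapamycin array 1 raised the count of 7 to 13, while it was 4 on omitting rapamycin array 2 or PD-0325901 array 1, 1 on omitting PD-0325901 array 2 and 2 on omitting combination array 2. For rapamycin, 37 of 49 were lower (53.8% of all genes), with a median of -0.09. The 8 members with an unadjusted p under 0.05 (5.55% of all genes) were all lower, beside 2.40% of all genes lower and 3.15% higher: Eif3i, Eif3a, Eif3c, Eif2b3, Eif4a2, Eif2s2, Eif2b5 and Eif4e. The arrays did not overlap for Eif3i and Eif3c, both lower, and for 0 members higher (1.41% of all genes). That count of 8 became 5 on omitting vehicle array 2 or rapamycin array 1, 2 on omitting PD-0325901 array 1, and 3 with the Xist block. In limma 0 members passed the adjusted threshold in either comparison.

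The single drugs were also compared with vehicle. With rapamycin, 31 of 49 members were lower (54.1% of all genes), with a median of -0.09. In limma 6 members had an unadjusted p under 0.05 (4.93% of all genes). Of these, Eif4a2, Eif3i, Eif3a and Eif2s2 were lower (2.15% of all genes) and Eif4e3 and Eif3f higher (2.77%). The arrays lay below vehicle for 13 members (17.9%) and above for 6 (12.5%). The total of 6 became 3 on omitting vehicle array 2 or rapamycin array 1. The median turned to 0.075 on omitting rapamycin array 1 and with the Xist block, and was -0.24 on omitting rapamycin array 2. With PD-0325901, 31 of 49 were lower (53.8% of all genes), with a median of -0.05, which turned to 0.027 with the Xist block and to 0.0024 on omitting PD-0325901 array 2. In limma 0 members had an unadjusted or adjusted p under 0.05, beside 5.84% of all genes at the unadjusted threshold (2.38% lower and 3.47% higher). That 0 became 1 when vehicle array 1, PD-0325901 array 1 or one of the combination arrays was left out, and 2 when vehicle array 2 or one of the rapamycin arrays was. Of the 13 members whose PD-0325901 arrays lay below both vehicle arrays (20.9% of all genes), the smallest p-values belonged to Eif3a, Eif4a2, Eif2ak1, Eif3b, Eif1ax and Eif2s2, with differences from -0.23 for Eif2ak1 (-0.16 with the Xist block) to -0.57 for Eif1ax. The 4 whose arrays lay above (17.6%) were Eif3f, Eif4g3, Eif3k and Eif3c.

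The interaction asks whether the effect of both drugs differs from the sum of each. For 33 of 49 members it was below 0 (48.2% of all genes), with a median of -0.11. It had an unadjusted p under 0.05 for 4 members (2.18% of all genes), below 0 for Eif4e3, Eif3f and Eif4g3 (1.14%) and above 0 for Eif4a2 (1.03%). The single-drug and combination arrays lay on opposite sides for Eif3c, Eif3f and Eif4g3 with a value below 0 (1.37%), and for Eif4a2 and Eif4ebp1 with a value above 0 (1.75%). Here both PD-0325901 arrays lay on one side of vehicle and both combination arrays on the other side of rapamycin. The count of 4 became 2 on omitting a vehicle or a rapamycin array and 1 on omitting PD-0325901 array 2, and the median of -0.11 turned to 0.043 on omitting combination array 2 and to 0.030 on omitting rapamycin array 2. With the Xist block it was -0.22, with 39 of 49 members below 0.

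Genes that work beside the members were described from lists. In the combination, all 12 of 12 genes of the Myc and ribosome biogenesis list were lower than in vehicle (53.7% of all genes), with a median of -0.73 and 10 at an unadjusted p under 0.05 (9.07% of all genes in either direction), among them Ncl, nucleolin (-0.56, SE 0.11), and Nolc1, a nucleolar chaperone (-0.83, SE 0.18). Their mean was 10.74 and 10.70 in vehicle, 9.95 and 10.54 in rapamycin, 10.49 and 10.13 in PD-0325901, and 10.09 and 9.81 in the combination. Whether the members and this list change together was not tested. Of 14 measured genes that carry mTORC1 and MNK signals to initiation, 5 were lower (53.7% of all genes) and 9 higher in the combination. Among them were Tsc1, an inhibitor of mTORC1, at 0.64 (SE 0.15) and Rheb, its activator, at -0.32 (SE 0.09). Rheb had a PD-0325901 main effect of -0.43 (SE 0.06, adjusted p = 0.1541). Of 12 other initiation and poly(A) factors 6 were lower (53.7% of all genes) and 6 higher in the combination. Beside 797 of 19938 genes lower at an unadjusted p under 0.05, 4 of these 12 factors were lower at that threshold. They include Denr (-0.75, SE 0.23) and Mcts1 (-0.46, SE 0.12), which form a pair that recycles small subunits. Mcts1 had a PD-0325901 main effect of -0.54 (SE 0.09, adjusted p = 0.1552). Of 12 elongation and termination factors 7 were lower (53.7% of all genes) and 5 higher. The release factor Gspt1, at -0.69 (SE 0.23), was the only 1 of them at an unadjusted p under 0.05 in limma. ATF4, whose own translation rises when eIF2 is phosphorylated, drives a further list. In the combination 11 of its 16 genes were lower (53.7% of all genes) and 5 higher. At an unadjusted p under 0.05, 4 of the 16 were lower, beside 797 of 19938 genes. As a rapamycin main effect 15 of the 16 were lower (53.8% of all genes), with a median of -0.18 and 3 at an unadjusted p under 0.05 (2.40% of all genes lower): Asns, asparagine synthetase (-0.88, SE 0.28), and Phgdh and Psat1 of serine synthesis (-0.45, SE 0.14, and -0.77, SE 0.26). In limma 0 genes of these 5 lists passed the adjusted threshold in any of the 6 comparisons.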

How the data were processed

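Members and lists were chosen with earlier results of these data known. Per the labels' protocols, NuGEN Applause WT-Amp ST reagents amplified the RNA before biotin labelling. The authors deposited log2 values, 1 per probe set and array. That the scale is log2 was read from the values (3.36 to 14.36), and array medians lie between 7.79 and 7.90. Software, background correction and normalization: not given in the sources used here. Of 35512 probe sets, 23410 are annotated, 21789 to 1 symbol. The probe set with the highest mean stands for a gene (999 genes had several, 7 members among them), and no filter on low values was applied. Groups were taken from the titles. A model of 4 group means was fitted to 19938 genes with limma 3.58.1 in R 4.3.3 (lmFit and eBayes, two-sided, 4 residual and 1.98 prior degrees of freedom) and checked on simulated data. P-values were adjusted by Benjamini-Hochberg over all genes, with a threshold of 0.05. An exact permutation test of 2 arrays against 2 cannot go below 0.333. Named in each comparison were up to 6 members per direction with the smallest p among those whose arrays did not overlap, the members at an unadjusted p under 0.05, the 4E-BPs, Eif4e, the eIF2 kinases, Eif2s3y, examples and extremes of each role class, and up to 3 genes per list. Alternatives were quantile normalization, median centring, genes above the median level, the mean of all probe sets, a robust prior with a variance trend, the array number as a block, only the 2 groups compared, 2 groups of 4 arrays and leaving out each array. The Xist block and counts at the adjusted threshold in the fits of 2 groups were added after the data were seen.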

Additional observations from a re-analysis of the deposited data

How the results depend on the processing

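No member passed the adjusted threshold under any of the alternatives, in any of the 6 comparisons. Of 841 alternative values of the 53 named differences, 829 kept their direction. Most of these differences were named because their arrays did not overlap, and leaving out an array then cannot change the direction. That count is therefore no measure of how firm they are. Leaving out each array in turn gave member medians of -0.24 to 0.075 for rapamycin against vehicle, -0.17 to 0.0024 for PD-0325901 against vehicle, -0.28 to -0.14 for the combination, -0.17 to -0.032 and -0.20 to -0.05 for the PD-0325901 and rapamycin main effects, and -0.22 to 0.043 for the interaction. In that order, the members at an unadjusted p under 0.05 numbered 3 to 9, 0 to 2, 5 to 13, 1 to 13, 2 to 11 and 1 to 4. All genes at an adjusted p under 0.05 numbered 0 to 15, 0 to 9, 0 to 9, 0 to 8, 0 to 2 and 0 to 2, and 22 in the fit of 2 groups of 4 arrays for PD-0325901. The 11 members of the combination became 7 with quantile normalization, 7 with median centring, 6 above the median level, 5 with a variance trend and 6 with the Xist block. The 0 of PD-0325901 against vehicle became 1 with median centring, the mean of all probe sets or the Xist block and 4 with only the 2 groups compared. The 7 of the PD-0325901 main effect became 4 above the median level, and the 8 of the rapamycin main effect 5 with median centring and 3 with the Xist block. The 6 of rapamycin against vehicle became 3 with the Xist block, where its median was 0.075, and the 4 of the interaction 2 with quantile normalization, above the median level or with the Xist block and 1 with a variance trend. The counts with the Xist block include Eif2s3y in every comparison but the interaction. The array numbers did not pair the arrays: deviations of same-numbered arrays correlated between -0.278 and 0.183 over 6 pairs of groups, 1 of them above 0.1. With the array number as a replicate block the combination count was 7. Differences that changed sign on leaving out an array ranged, as PD-0325901 main effects, from -0.011 (without combination array 2) to 0.092 for Eif4ebp1, from -0.19 to 0.027 (without rapamycin array 2; 0.0060 without PD-0325901 array 2) for Eif4e, from -0.0017 (without PD-0325901 array 2) to 0.12 for Eif2ak4, and from -0.36 (without combination array 1; -0.30 without PD-0325901 array 1) to 1.75 for Eif2s3y. As rapamycin main effects they ranged from -0.086 to 0.016 (without combination array 1) for Eif4ebp1, from -0.082 to 0.047 (without vehicle array 1) for Eif4ebp2, from -0.012 (without combination array 1) to 0.11 for Eif2ak1, and from -0.26 to 0.11 (without vehicle array 1; 0.091 without rapamycin array 2) for Eif2ak2. That of Eif2s3y turned to 0.77 with the Xist block, a product of the block step and not a measured rise. Beyond the designs with fewer arrays or genes, the cause was not tested.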

Other observations

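Probe sets shared by several symbols give no value to a single gene, but they cover the family genes left out above. The probe set of Ankhd1 and Eif4ebp3 had values of 9.15 and 9.29 in vehicle, 9.24 and 9.41 in rapamycin, 9.33 and 9.53 in PD-0325901, and 9.18 and 9.75 in the combination, with the highest value on combination array 2. The brighter of the 2 probe sets shared by Eif3j1 and Eif3j2, a subunit loosely held by eIF3, had 11.54 and 11.56 in vehicle, 11.14 and 11.30 in rapamycin, 11.25 and 11.09 in PD-0325901, and 11.10 and 11.25 in the combination. The dimmer one had 10.77 and 10.77 in vehicle and between 10.25 and 10.50 on the other 6 arrays. On both, all 6 treated arrays lay below both vehicle arrays, which is the pattern given for Eif3a.

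Of the 7 members with several probe sets, the further ones followed the one used for Eif4a1 (r = 0.99 for both over 8 arrays, a description), Eif3m (r = 0.96), Eif5a (r = 0.95) and Eif2s2 (r = 0.94). They followed less closely for Eif4enif1 (r = 0.56) and not for Eif4e1b (r = -0.04), a germline form of eIF4E whose used probe set lies at the 41.9 percentile of all genes by mean level.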
